A study of Mus musculus with 3 samples.

Results

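Cholesterol synthesis, uptake and export were followed through 31 mouse genes in cultures labelled as purified interneurons of the medial ganglionic eminence (MGE), a ventral zone of the embryonic forebrain where many inhibitory interneurons of the cortex are born. Members were the array's probe sets that carry 1 gene symbol which is on the list, and 28 of the 31 genes were measured, by 30 probe sets, among 20751 genes tested. Acat2 and Soat1 had no probe set of their own in the tables used here, and the probe set of Idi1 also carries a second symbol, so these 3 genes were not analysed here. The series holds 1 group of 3 cultures, labelled as biological replicates, from wild-type CD-1 embryos at embryonic day 13. MGE cells were plated at 59000 cells per square centimetre in Neurobasal medium with B27 supplement, L-glutamine and FGF2 at 40 ng/ml. AraC, a nucleoside analogue that kills cells in DNA synthesis, was added at 1 µM on day 5 for 24 h, the medium was changed 3 times at intervals of 2 h, and the cultures were kept for 2 more days. RNA was measured on a 1-colour Affymetrix array, 1 per culture. No untreated, unpurified or sterol-treated group was analysed here, so the design allows a test of signal against background and a description of how the 3 cultures differed.

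Neurons and glia of the developing brain make most of their own cholesterol, because lipoproteins of the blood do not cross the blood-brain barrier. Acetyl-CoA is built into mevalonate and isoprenoid units, a pair of farnesyl units is joined to squalene, squalene is closed to lanosterol, and a chain of further enzymes turns lanosterol into cholesterol. When sterol in the endoplasmic reticulum is low, the transcription factor SREBP2 is carried by its escort Scap to the Golgi, cut there, and switches on the genes of nearly the whole chain; when sterol is high, Insig proteins hold Scap back. Excess sterol is exported by ABC transporters to apolipoprotein E, largely a product of glia, or leaves neurons as 24-hydroxycholesterol.

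Values are log2 signals, given as mean ± SD over n = 3 cultures, and the number of arrays limits their precision. Probe sets for smell, pheromone and bitter taste receptors (Olfr, Vmn1r, Vmn2r and Tas2r genes) set the background, and the line was the 95th percentile of their means, 6.26 log2 units. Levels of different genes were not set against each other, because each probe set has its own affinity. The cultures carried the defining genes of their label: all 7 neuronal and all 8 GABA and MGE lineage markers were above background. Across all genes tested, 63.4% were above background. Markers of other cells were above it too, with 5 of 7 astrocyte, 7 of 8 measured oligodendrocyte lineage, 5 of 5 progenitor and 3 of 3 cycling cell markers. The astrocyte share is near that of all genes. With a margin of 1 log2 unit, 4 of 7 astrocyte and 6 of 8 oligodendrocyte lineage markers were still above background (47.6% of all genes). So were 4 of 5 progenitor and 3 of 3 cycling cell markers. Of 7 microglial markers 5 were above background, also near the share of all genes, and none was with a margin of 1 log2 unit.

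All 28 measured members gave signal above background in limma's 1-sided test against the line, adjusted by Benjamini-Hochberg over 22081 probe sets, where 63.4% of all genes tested did. The largest adjusted p was 0.000261, for Hsd17b7, and the smallest 1.37e-06. With a margin of 1 log2 unit over the line all 28 were still above it, against 47.6% of all genes. Stard4 came closest to the line, 1.48 log2 units over it. All 28 were also above background with any 1 culture left out. The plot of signal by culture shows every member clear of the line in every culture.

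**Figure D1:**
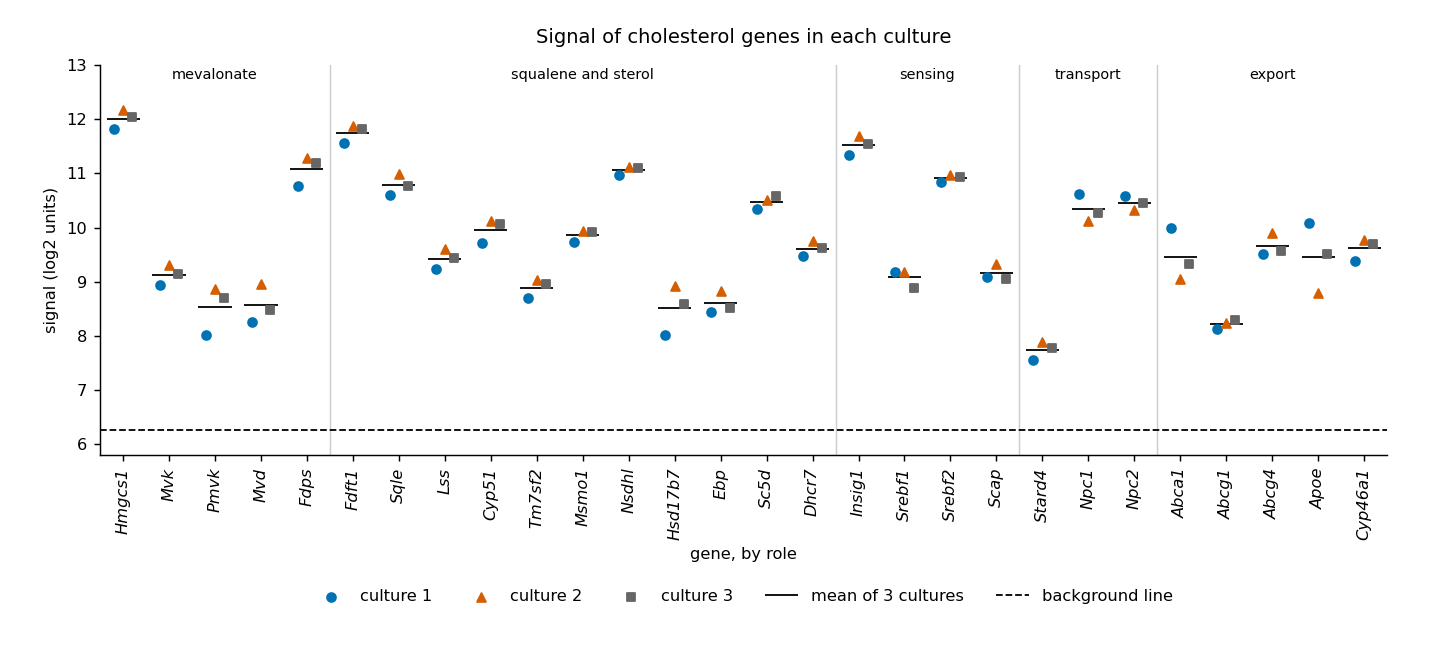
Signal of the 28 measured genes in log2 units (vertical axis) by role (horizontal axis), with 1 symbol per culture, a bar at the mean of the 3 cultures and a dashed background line at 6.26. Every value lies above the line, and in the mevalonate and the squalene and sterol panels culture 1 is the lowest for every gene.

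In the mevalonate arm, which makes the isoprenoid units, all 5 measured enzymes were lowest in culture 1 and highest in culture 2. Hmgcs1, which condenses acetyl groups to HMG-CoA, gave 11.82, 12.17 and 12.03 in cultures 1, 2 and 3 (12.01 ± 0.18). Mvk, the kinase that phosphorylates mevalonate, gave 8.94, 9.31 and 9.13 (9.13 ± 0.19). Pmvk and Mvd varied more than these 2 genes. Pmvk, the next kinase, gave 8.01, 8.87 and 8.69 (8.52 ± 0.46), so culture 1 stood apart from the others. Mvd, which makes isopentenyl diphosphate by decarboxylation, gave 8.26, 8.96 and 8.48 (8.57 ± 0.36), and here culture 2 was the one apart. For Fdps, the synthase of farnesyl diphosphate, the values were 10.76, 11.28 and 11.18 (11.07 ± 0.28). From culture 1 to culture 2 the signal was 1.82-fold higher for Pmvk, 1.63-fold for Mvd and 1.44-fold for Fdps.

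The first steps that are committed to sterols had the same order of cultures. Fdft1, squalene synthase, gave 11.56 in culture 1, 11.88 in culture 2 and 11.81 in culture 3 (11.75 ± 0.17). Sqle, the squalene epoxidase and a slow step of the chain, gave 10.59, 10.98 and 10.76 (10.78 ± 0.20). For Lss, which closes the ring to lanosterol, the values were 9.23, 9.60 and 9.43 (9.42 ± 0.18). In these 3 genes culture 3 lay between the others and the whole range was under 0.40 log2 units.

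The enzymes that trim lanosterol to cholesterol differed more among themselves. Cyp51, the lanosterol 14-demethylase, gave 9.71, 10.12 and 10.06 in cultures 1, 2 and 3 (9.96 ± 0.22), and Tm7sf2, a sterol 14-reductase, gave 8.69, 9.03 and 8.95 (8.89 ± 0.18). In both, culture 1 was low and the other 2 were close. Msmo1, the 4-methyl oxidase, gave 9.74, 9.93 and 9.92 (9.86 ± 0.11), and Nsdhl, the dehydrogenase of the same demethylation, gave 10.98, 11.11 and 11.10 (11.06 ± 0.07). These 2 genes had the smallest spread of the enzymes, with cultures 2 and 3 nearly equal. Hsd17b7, the ketoreductase that completes that step, had the largest spread of the enzymes, with 8.01, 8.93 and 8.59 (8.51 ± 0.46). Its signal was 1.89-fold higher in culture 2 than in culture 1, and its SD exceeded that of 98.0% of all genes above background. Ebp, the sterol isomerase, gave 8.45, 8.83 and 8.52 (8.60 ± 0.20), with culture 2 apart. Sc5d, the desaturase, gave 10.33, 10.50 and 10.58 (10.47 ± 0.13) and was the only enzyme of the 16 measured whose highest value was in culture 3. Dhcr7, which reduces 7-dehydrocholesterol to cholesterol, gave 9.47, 9.74 and 9.61 (9.61 ± 0.14).

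The 16 enzymes thus shared an order. All 16 were lowest in culture 1, against 42.4% of all genes above background, and 15 of 16 ran culture 1, 3, 2 from low to high, against 33.8%. The median difference of culture 2 minus culture 1 was 0.37 log2 units over the enzymes (range 0.13 to 0.92) and 0.06 over all genes above background. Culture 2 was at least 1.25-fold above culture 1 for 11 of the 16 enzymes and for 16.4% of all genes above background. No enzyme was at least 1.25-fold lower, against 8.17%. The step from culture 1 to culture 3 had a median of 0.22 over the enzymes and that from culture 3 to culture 2 a median of 0.13. Each culture is 1 array, so differences between cultures have no test, and genes under shared control are not independent of each other. After quantile normalization of the deposited values the count past 1.25-fold was 8 of 16, and after centring the arrays on a common median it was 13 of 16, while all 16 were higher in culture 2 than in culture 1 under both. The share of all genes higher in culture 2 than in culture 1 was 60.2% in the deposited values, 55.1% after quantile normalization and 69.5% after centring.

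**Figure D2:**
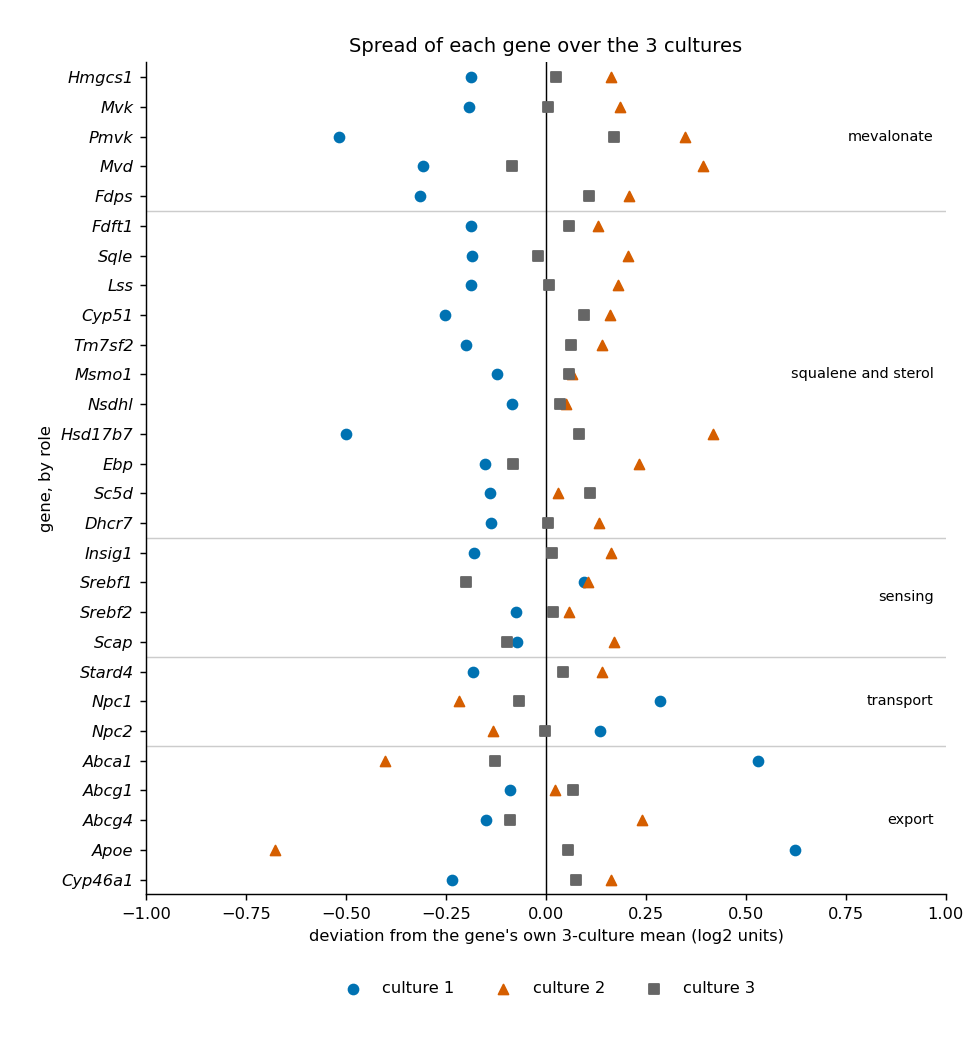
Deviation of each culture from the gene's own 3-culture mean in log2 units (horizontal axis) for the 28 measured genes by role (vertical axis), 1 symbol per culture. Culture 1 lies left of culture 2 for all 16 enzymes, and for Npc1 (its brighter probe set), Npc2, Abca1 and Apoe the order is turned round.

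Among the genes of sterol sensing and response, Insig1 and Srebf2 had the order of the enzymes, though Srebf2 varied little, and Srebf1 had another order. Insig1, which retains Scap when sterol is ample and is itself an SREBP target, gave 11.34, 11.69 and 11.54 in cultures 1, 2 and 3 (11.52 ± 0.17). Its difference of culture 2 minus culture 1, 0.34 log2 units, was near the median of the enzymes. Srebf2, which encodes SREBP2, gave 10.83, 10.97 and 10.92 (10.91 ± 0.07), an SD below that of most genes above background (percentile 24.4). Srebf1, whose products favour fatty acid genes, gave 9.17, 9.18 and 8.88 (9.08 ± 0.17), so culture 3 alone was low. Cultures 1 and 2 of Srebf1 differed by 0.01, and after quantile normalization by -0.07. Scap, the escort, gave 9.08, 9.32 and 9.06 (9.15 ± 0.15), with culture 2 apart. A second probe set of Scap was not above background (6.36 ± 0.07, limma adjusted p = 0.109). RNA level does not show how much SREBP protein was cut.

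In transport within the cell, the SREBP target Stard4 and the lysosomal protein Npc2 ran in opposite orders, and the probe sets of Npc1 disagreed. Stard4, a carrier of cholesterol through the cytosol, gave 7.56, 7.88 and 7.78 in cultures 1, 2 and 3 (7.74 ± 0.17), the order of the enzymes. Npc1, the membrane protein that lets cholesterol leave lysosomes, gave 10.62, 10.12 and 10.27 (10.33 ± 0.26), highest in culture 1 by 0.50 log2 units over culture 2. A dimmer second probe set of Npc1, also above background (6.68 ± 0.32), gave 6.55, 7.05 and 6.45, with culture 2 highest, so the direction of Npc1 rests on which probe set is read. With the mean of both, the difference of culture 2 minus culture 1 was 0.0015. Npc2, the soluble partner that hands cholesterol to Npc1, gave 10.59, 10.32 and 10.45 (10.45 ± 0.13), highest in culture 1 too.

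Export held the members with the widest ranges, Apoe at 1.30 and Abca1 at 0.93 log2 units, beside 0.92 for the enzyme Hsd17b7. As a group it was not the widest, with a median SD of 0.21 against 0.28 in the mevalonate arm. Its 5 genes did not share an order of cultures. Apoe, which encodes the main apolipoprotein of the brain, gave 10.09 in culture 1, 8.79 in culture 2 and 9.52 in culture 3 (9.46 ± 0.65). Its signal was 2.46-fold higher in culture 1 than in culture 2, and its SD exceeded that of 99.5% of all genes above background. Abca1, the transporter that loads lipid onto Apoe, gave 9.99, 9.06 and 9.33 (9.46 ± 0.48) and was 1.91-fold higher in culture 1 than in culture 2. Both thus ran culture 2, 3, 1 from low to high, as did Npc2 and the brighter probe set of Npc1. These are 4 of 28 members, against 16.7% of all genes above background, and 3 with the mean of each gene's probe sets, where Npc1 drops out. Cyp46a1, the enzyme that makes 24-hydroxycholesterol and is known from neurons, gave 9.38, 9.78 and 9.69 (9.61 ± 0.21), the order of the enzymes. Abcg4, a sterol transporter found in neurons and astrocytes, gave 9.51, 9.90 and 9.57 (9.66 ± 0.21), also lowest in culture 1 and highest in culture 2. Abcg1, its close relative, varied little, at 8.13, 8.24 and 8.29 (8.22 ± 0.08). Over all 28 members, 20 ran culture 1, 3, 2 from low to high (33.8% of all genes above background). After quantile normalization 19 did (30.8%). Higher in culture 2 than in culture 1 were 24 members (60.2% of all genes above background), and 23 after quantile normalization, where Srebf1 turned. At least 1.25-fold lower in culture 2 were 3 members, namely Apoe, Abca1 and Npc1 (8.17% of all genes above background). With the mean of each gene's probe sets Npc1 turned, so that 25 members were higher in culture 2 and 2 were at least 1.25-fold lower.

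Markers of some cell types moved with these orders, and those of others did so less. In each whole culture, fewer cells of a type and less RNA per cell cannot be told apart. All 7 astrocyte markers were higher in culture 1 than in culture 2, against 5103 of the 13155 genes above background. Their summed log2 signals were 59.98, 54.49 and 57.80 in cultures 1, 2 and 3. Count and sums include S100b and Gjb6, which were not above background. Of the 5 astrocyte markers above background, 4 ran culture 2, 3, 1 from low to high. Among them Gfap, an astrocyte filament, gave 8.51, 6.64 and 8.08, Aqp4, the water channel of astrocytes, gave 8.74, 7.53 and 8.34, and Aldh1l1, an enzyme of folate metabolism, gave 10.69, 9.80 and 10.30. Over the 5 above background, the median of culture 2 minus culture 1 was -0.89 log2 units, beside -1.30 for Apoe and -0.93 for Abca1. Of the 8 GABA and MGE lineage markers, 7 ran culture 1, 3, 2 from low to high, with summed log2 signals of 81.59, 85.16 and 84.23. Their median of culture 2 minus culture 1 was 0.36, beside 0.37 for the enzymes. Neuronal markers had a median of 0.29. Of these, 5 of 7 were lowest in culture 1 (42.4% of all genes above background) and 3 of 7 ran culture 1, 3, 2 (33.8%). Dcx and Map2 were slightly lower in culture 2 than in culture 1. Oligodendrocyte lineage markers above background had a median of -0.18, progenitor markers -0.39 and cycling cell markers -0.22. The order culture 2, 3, 1 held for 5 of 7 oligodendrocyte lineage and 4 of 5 progenitor markers above background (16.7% of all genes). It also held for 1 of 3 cycling cell and 1 of 5 microglial markers above background. Markers of microglia, cells that can also make Apoe, had a median of -0.25 and summed signals of 46.07, 45.13 and 46.40. The part of cell composition in the orders of the cholesterol genes was not tested.

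**Figure D3:**
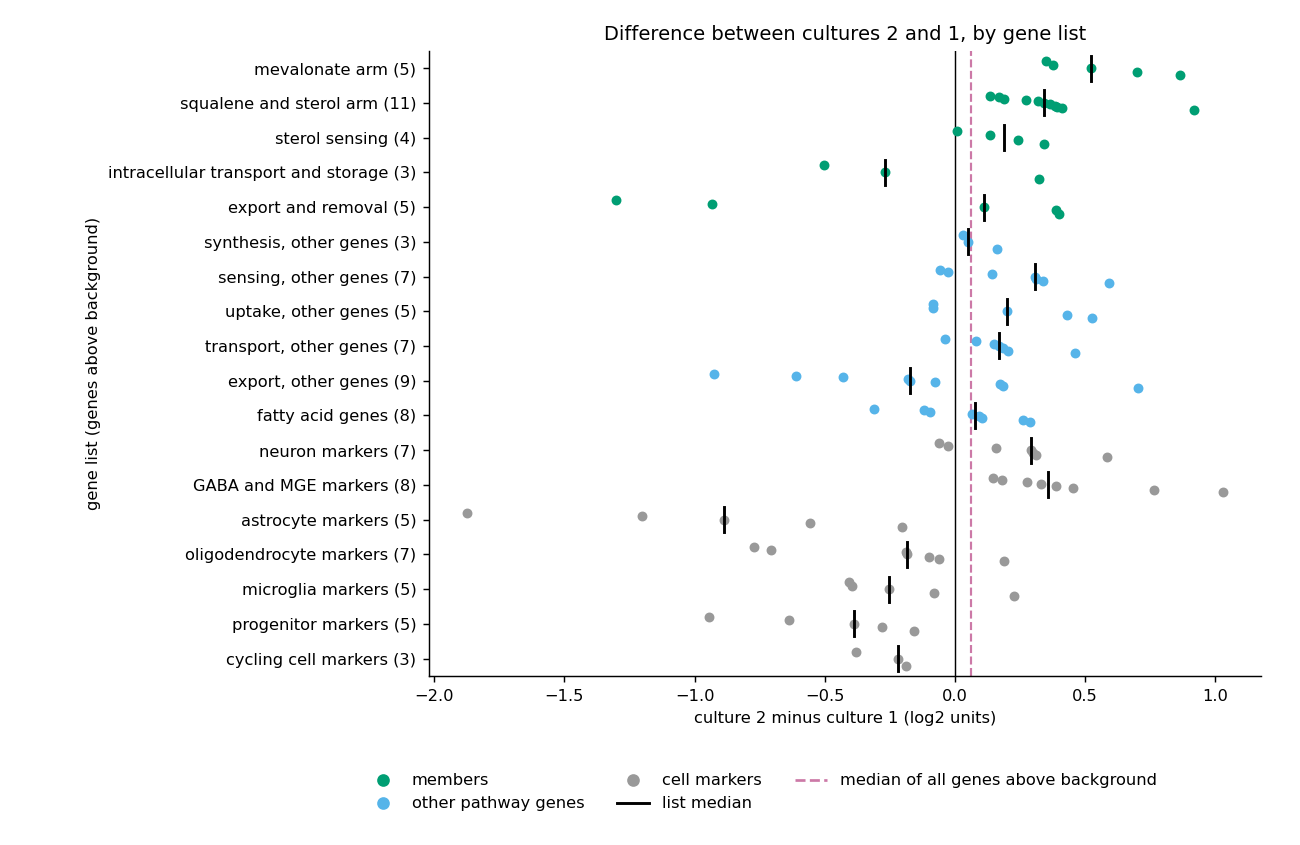
Difference of culture 2 minus culture 1 in log2 units (horizontal axis) for genes above background in each list (vertical axis, number of genes in parentheses), with a bar at the list median and a dashed line at the median of all genes above background, 0.06. Lists with medians right of the dashed line include both enzyme lists, both sensing lists, uptake, and the GABA and MGE and neuron markers. The astrocyte, progenitor and cycling cell markers lie wholly left of 0.

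Of the other pathway genes, 42 of 52 were measured and 39 of these were above background (63.4% of all genes tested), 35 with a margin of 1 log2 unit (47.6%). The 3 that were not above background were Nr1h3 (6.04 ± 0.10), the oxysterol receptor LXR-alpha, Ch25h (5.98 ± 0.07), which makes 25-hydroxycholesterol, and Cyp27a1 (5.36 ± 0.16), the mitochondrial sterol hydroxylase. Each had a limma adjusted p of 1. The other 10 genes of these lists were not analysed here.

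Of the other measured genes of sterol sensing, its control and lipoprotein uptake, all but Nr1h3 were above background (63.4% of all genes tested). Insig2, the second Insig, gave 8.30, 8.61 and 8.44 in cultures 1, 2 and 3 (8.45 ± 0.15). Mylip, an LXR target that marks lipoprotein receptors for breakdown, gave 7.74, 8.34 and 8.33 (8.14 ± 0.34). Culture 1 of Mylip was low and cultures 2 and 3 were nearly equal. In Abca1 and Apoe, which are LXR targets too, culture 1 was highest. In Abcg1 culture 1 was lowest, at 8.13 against 8.24 and 8.29, and in Srebf1 culture 3 was lowest. LXR targets were not examined as a set. All 5 uptake genes measured, of 7 listed, were among those above background. Vldlr and Lrp8, the receptors that bind both Apoe and reelin, gave 9.25, 9.68 and 9.31 (9.41 ± 0.23) and 9.30, 9.50 and 9.38 (9.40 ± 0.10). Both were lowest in culture 1 and highest in culture 2. Lrp1, a large receptor for Apoe in neurons and glia, gave 10.28, 10.20 and 10.01 (10.16 ± 0.14), a different order. Over all other pathway genes above background, 14 of 39 ran culture 1, 3, 2 from low to high. Their median of culture 2 minus culture 1 was 0.11, and both values were nearer to all genes (33.8% and 0.06) than to the enzymes. The lists pooled here differed. That order held for 5 of 7 sensing genes (median 0.31) and 3 of 5 uptake genes (0.20). It held for 0 of 3 synthesis genes (0.05), 2 of 7 transport genes (0.17), 1 of 9 export and oxysterol genes (-0.17) and 3 of 8 fatty acid genes (0.08).

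Promoter windows of the members were searched because the enzyme genes ran together over the cultures. RefSeq windows of GRCm38.p6, from 250 bases before to 50 bases after an annotated start, were found for 21 of the 28 measured members, 13 enzymes and 8 others. The letters searched, on both strands, were TCACNCCAC for the sterol response element that SREBP binds, CCAAT for NF-Y and GGGCGG for Sp1, factors that act beside SREBP, CACGTG for the E-box, and the LXR direct repeat and a nuclear receptor everted repeat, both as consensus sequences. No one of these motifs contains another. CCAAT was in a window of all 13 enzymes and of 5 of the 8 others (Insig1, Srebf1, Srebf2, Npc2 and Cyp46a1), against 41.1% of all 27025 genes with a window and 42.3% of the 10295 above background. For Pmvk and Dhcr7 it was in 1 of several windows. GGGCGG was in 12 of 13 enzymes and 7 of 8 others, against 38.2% and 68.5%. CACGTG was in 3 of 13 enzymes and 3 of 8 others, against 8.09% and 11.5%. TCACNCCAC was in Hmgcs1 alone, against 1.44% and 1.33%, and both nuclear receptor motifs were in none of the 21, against 0.0148% and 0.0111% of all genes. Known sterol response elements vary in sequence, and a window without these letters says nothing of SREBP at that gene. The LXR direct repeat and the everted repeat, searched as exact letters, were in 0 and 2 of the 10295 genes above background. Their absence from a window likewise says nothing of LXR at that gene.

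Stretches of 250 bases upstream of the annotated start are shown 5′ to 3′ in the gene's direction for 3 enzymes and for Abca1, with letters of any searched motif in capitals. Hmgcs1 (chr13:119690101-119690350 on the plus strand, GRCm38.p6) holds the sterol response element, 3 CCAAT and 2 GGGCGG matches. Mvd (chr8:122443423-122443672 on the minus strand) and Hsd17b7 (chr1:169969206-169969455 on the minus strand) are shown for their wide difference between cultures 1 and 2, and hold 2 and 3 CCAAT matches. Abca1 (chr4:53159896-53160145 on the minus strand) is shown because its order of cultures was opposite, and it holds no CCAAT, 2 GGGCGG and 1 CACGTG.
Hmgcs1: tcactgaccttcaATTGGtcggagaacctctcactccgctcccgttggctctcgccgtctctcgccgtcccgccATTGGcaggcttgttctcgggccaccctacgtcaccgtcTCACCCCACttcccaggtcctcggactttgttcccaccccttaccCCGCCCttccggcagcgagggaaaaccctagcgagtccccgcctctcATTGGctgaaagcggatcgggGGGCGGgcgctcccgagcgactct
Mvd: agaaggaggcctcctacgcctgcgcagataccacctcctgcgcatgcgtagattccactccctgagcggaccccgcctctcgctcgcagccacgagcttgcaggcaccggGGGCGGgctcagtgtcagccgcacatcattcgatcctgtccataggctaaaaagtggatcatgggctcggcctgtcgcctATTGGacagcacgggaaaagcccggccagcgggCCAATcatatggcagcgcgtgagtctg
Hsd17b7: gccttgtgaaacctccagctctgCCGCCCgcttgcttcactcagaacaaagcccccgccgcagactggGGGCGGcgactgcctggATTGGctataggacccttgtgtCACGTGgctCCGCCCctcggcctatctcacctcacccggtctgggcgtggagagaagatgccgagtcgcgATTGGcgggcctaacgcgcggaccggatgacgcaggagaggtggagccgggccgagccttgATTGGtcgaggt
Abca1: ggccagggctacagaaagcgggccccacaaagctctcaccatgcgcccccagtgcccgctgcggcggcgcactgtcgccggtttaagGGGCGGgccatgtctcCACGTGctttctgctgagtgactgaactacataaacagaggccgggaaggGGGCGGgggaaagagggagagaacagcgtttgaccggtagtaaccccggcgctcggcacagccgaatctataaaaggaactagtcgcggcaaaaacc
A reversed match reads ATTGG for CCAAT and CCGCCC for GGGCGG. The 3 windows of Apoe held none of the motifs searched. A match is a description of letters and not of a bound site.

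**Figure D4:**
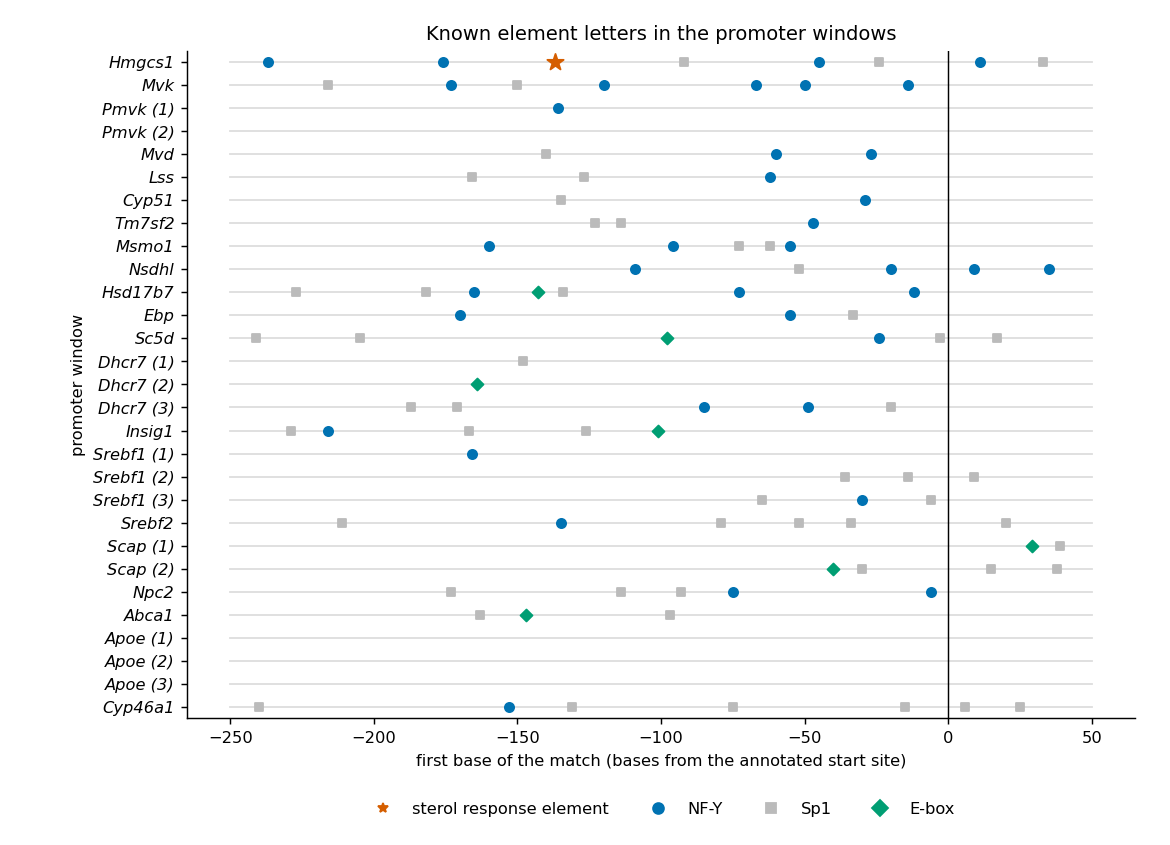
Positions of motif letters in the RefSeq promoter windows of the 21 measured members that have one, as bases from the annotated start site (horizontal axis, first base of the match, both strands), 1 line per window (vertical axis). Each enzyme has a CCAAT circle in at least 1 window, and the only star, the sterol response element, is in Hmgcs1.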

How the data were processed

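RNA of 3 cultures in 1 group was measured on 1-colour arrays from 100 ng of total RNA. The deposited values are log2 signals, 1 per probe set and culture (41345 probe sets), made by the authors with oligo and RMA, per the submitters' processing notes. Tool versions, settings and genome build were not given in the sources used here. Genes were named from the platform annotation, where 23521 probe sets carry 1 symbol, 1814 several and 16010 none. All 28 measured members had their gene ID and symbol in RefSeq.

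The line was the 95th percentile of 1440 receptor probe sets (median 4.37 log2 units). limma 3.58.1 in R 4.3.3 tested if the mean of the 3 cultures exceeded it, 1-sided, in a fit of all 22081 other probe sets with 1 symbol (2.13 prior degrees of freedom), adjusted by Benjamini-Hochberg, and 0.05 was the limit. Replicates are labelled biological, but whether they came from separate dissections is not stated, so p-values measure the spread between these cultures. A gene was above background if any probe set was, and its brightest probe set is printed. On simulated data 38, 44, 49 and 50 of 50 probe sets set 0.25, 0.5, 1 and 2 log2 units over the line were called in a fit of 22081, as were 13 of 7179 set below it.

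Members, lists and tests were chosen with earlier results of these data known. Every member is named, and of the other pathway genes a fixed set plus those not above background. The 1.25-fold limit, the cultures' orders and the promoters printed were chosen after the values were seen. The alternatives were the 90th and 99th percentile, a margin of 1, no test, an intensity trend, quantile normalization, median centring, no dim probe sets, probe set means and each culture left out.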

Additional observations from a re-analysis of the deposited data

How the results depend on the processing

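The count of members above background was 28 under all 12 alternatives run, and from 28 to 28 with 1 culture left out. The count of other pathway genes was from 39 to 39 with 1 culture left out, 36 at the 99th percentile (without Gramd1c, Abca7 and Apoa1), 35 with a margin of 1 log2 unit (without Cyp39a1 too) and 41 at the 90th percentile, where Nr1h3 and Ch25h were called. There Nr1h3 lay 0.22 log2 units and Ch25h 0.15 over the line, so both crossed it. The order culture 1, 3, 2 held for 15 enzymes in the deposited values, after median centring and with probe set means, and for 14 after quantile normalization. The median of culture 2 minus culture 1 over the enzymes was 0.32 after quantile normalization and 0.43 after median centring, where all genes had 0.03 and 0.12. No paired analysis was possible because the series has 1 group. Arrays give no read depth, and signal over background limits the calls near the line.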

Other observations

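The fatty acid genes that SREBPs also switch on had mixed orders of the cultures. All 8 measured were above background (63.4% of all genes tested), and 3 of 8 ran culture 1, 3, 2 from low to high, near the 33.8% of all genes above background. None was at least 1.25-fold higher in culture 2 than in culture 1 (16.4% of all genes above background) or lower (8.17%). The 3 genes with that order were Acly, which makes cytosolic acetyl-CoA, Elovl6, an elongase, and Fasn. Acly gave 10.57, 10.86 and 10.69 in cultures 1, 2 and 3 (10.71 ± 0.15), and Elovl6 gave 12.39, 12.65 and 12.56 (12.53 ± 0.13). Fasn, the fatty acid synthase, gave 11.36, 11.46 and 11.39 (11.40 ± 0.05). Scd1, a desaturase, gave 11.02, 10.90 and 10.96 (10.96 ± 0.06), with culture 1 highest. Fads2, a desaturase of long polyunsaturated fatty acids, gave 12.86, 12.55 and 12.64 (12.68 ± 0.16), with culture 1 highest too. The choice of Acly, Elovl6 and Fads2 was made with their values in view. The median SD over the 8 genes was 0.06 log2 units, against 0.19 over the 16 cholesterol enzymes and 0.12 over all genes above background.

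Cyp7b1, which hydroxylates oxysterols and was named after its values were seen, gave 8.26, 7.34 and 7.90 (7.83 ± 0.47), 1.90-fold higher in culture 1 than in culture 2. Abca5, a lysosomal transporter chosen in the same way, gave 8.36, 9.07 and 8.77 (8.73 ± 0.35), the opposite order. Apod, a small lipid carrier of glia also picked by its values, gave 8.34, 7.73 and 7.84 (7.97 ± 0.33).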
